A study of Mus musculus with 444 samples.

Results

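Neuregulin 1 (Nrg1), the EGF receptor ligands Hbegf, Tgfa, Btc and Ereg, and the 4 ErbB receptors Egfr, Erbb2, Erbb3 and Erbb4 were followed through single epithelial cells of the mouse mammary gland at puberty and in adulthood. These 9 genes were found by their Entrez gene identifiers among the 25174 genes kept in the deposited count tables. The series holds 444 single cells, 221 pubertal and 223 adult, isolated on the Fluidigm C1 microfluidic capture system with cDNA made on the chip. All came from total mammary epithelium of female FVB/NJ mice, an inbred strain, and neither group was treated. Pubertal mice were about 5 weeks old (the names of their deposited tables give 4 weeks) and adult mice 10 weeks. The cells had been sorted fresh from glands pooled from several mice, as CD24-positive cells lacking the endothelial, leukocyte and erythroid antigens CD31, CD45 and Ter119. The labels name no animal, so each stage counted as 1 sample and no test between stages was possible. Intervals in the text are 95% exact intervals, binomial for shares of cells and ratios and Poisson for counts. They cover counting error only, not the spread between animals. Those of ratios and counts also leave out the spread between cells.

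ErbB receptors are membrane tyrosine kinases that pair on ligand binding and signal through ERK and PI3 kinase. Egfr, the EGF receptor, binds Hbegf, Tgfa, Btc and Ereg, some of which also bind Erbb4, whereas neuregulins bind Erbb3 and Erbb4. Erbb2 has no known ligand and is the favoured partner of the other receptors, and Erbb3 has little kinase activity of its own. In the mammary gland the family is known for ductal outgrowth at puberty, driven in part by Areg, the amphiregulin produced by hormone-sensing luminal cells, and for alveolar development and milk production through Erbb4.

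The members lie on several chromosomes (mm10/GRCm38 coordinates). Nrg1 (gene 211323) is a large gene at chr8:31807452-32891609, and Erbb4 (gene 13869) is of similar extent at chr1:68031884-69108576. Egfr (gene 13649, chr11:16752203-16913907) and Erbb2 (gene 13866, chr11:98412484-98437716) share a chromosome, and Erbb3 (gene 13867) is at chr10:128567523-128589635. Tgfa (gene 21802) is at chr6:86195038-86275744, and Hbegf is gene 15200. Ereg (gene 13874, chr5:91074617-91093649) and Btc (gene 12223, chr5:91357261-91402994) lie in a cluster of EGF ligand genes on chromosome 5 together with Epgn and Areg, with 4 protein-coding genes inside 375 kb.

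RefSeq promoter windows were at hand for 5 of the 9 members. The 250 bases before the annotated start are printed here for Btc and for its cluster neighbour Areg, which share mature luminal cells as their site of highest level, and for Egfr and Erbb2, the receptors whose levels ran in opposite directions between the luminal classes. Capitals mark a TATA box, a GC box, a CCAAT box or a cyclic AMP response element on either strand. All windows are GRCm38.p6, read 5′ to 3′ on the strand of the gene.
Btc, chr5:91402995-91403244, minus strand: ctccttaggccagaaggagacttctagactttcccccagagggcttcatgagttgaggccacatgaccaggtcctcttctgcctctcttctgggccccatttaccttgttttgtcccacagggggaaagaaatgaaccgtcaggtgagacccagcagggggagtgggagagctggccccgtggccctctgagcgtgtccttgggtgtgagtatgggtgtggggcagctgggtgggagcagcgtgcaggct
Areg, chr5:91139349-91139598, plus strand: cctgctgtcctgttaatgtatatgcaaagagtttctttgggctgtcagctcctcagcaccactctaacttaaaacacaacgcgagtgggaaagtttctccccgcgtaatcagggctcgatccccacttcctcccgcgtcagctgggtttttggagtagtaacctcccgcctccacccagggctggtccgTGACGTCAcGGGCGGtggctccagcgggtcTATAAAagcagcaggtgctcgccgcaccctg
Egfr, chr11:16751953-16752202, plus strand: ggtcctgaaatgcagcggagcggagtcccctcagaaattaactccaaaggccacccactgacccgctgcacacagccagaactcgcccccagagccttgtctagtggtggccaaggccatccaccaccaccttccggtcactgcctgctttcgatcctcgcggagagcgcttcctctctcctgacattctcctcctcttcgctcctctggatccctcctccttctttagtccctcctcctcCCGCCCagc
Erbb2, chr11:98412234-98412483, plus strand: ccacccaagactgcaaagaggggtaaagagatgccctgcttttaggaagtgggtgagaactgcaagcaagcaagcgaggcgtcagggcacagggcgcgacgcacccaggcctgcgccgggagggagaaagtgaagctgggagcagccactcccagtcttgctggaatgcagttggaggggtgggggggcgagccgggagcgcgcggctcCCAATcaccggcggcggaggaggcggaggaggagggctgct
The Btc window held none of these motifs, whereas Areg held a TATA box 31 bases, a GC box 52 bases and a cyclic AMP response element 61 bases before its start. Egfr held a GC box 9 bases before the start on the other strand and no TATA box. Erbb2 held a CCAAT box 41 bases before the start. Across 32817 promoter windows of the same length, 12.4% held the TATA box searched (TATAAA), 32.7% the GC box (GGGCGG), 33.8% the CCAAT box and 1.55% the cyclic AMP response element (TGACGTCA), counting both strands. An AP-1 site (TGANTCA, in 6.75% of windows) was also searched and was found in no window of a member or of Areg and Epgn. GC content was 66.0% for Erbb2, 60.8% for Egfr and 59.6% for Btc, against a median of 52.4% over all windows. A letter match in these windows describes the sequence only.

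Cells with at least 100000 read pairs and 1500 detected genes were kept, 171 of 221 pubertal and 152 of 223 adult cells. Retained cells held 101709 to 1356703 read pairs (median 310759) at puberty and 101127 to 1054346 (median 332509) in the adult. Each was thinned at random to 100000 read pairs, so that 1 read in a cell is 10 CPM (counts per 1000000 read pairs), and a group's CPM is the mean over its cells, zeros included. RPKM divides CPM by the gene's exon length in kilobases and is used to compare levels of different genes, except where CPM is named. Cells were placed in rebuilt classes by 12 markers each: 39 pubertal and 71 adult cells were basal-like, 28 and 31 were luminal progenitor-like, 80 and 28 were mature luminal-like, and 24 and 22 were left unassigned. The marker sum of the basal class, which includes Krt5, Krt14 and Acta2, had a median of 15600 CPM in pubertal basal-like cells and 20 CPM in pubertal mature luminal-like cells. Immune, endothelial and pericyte marker sums had a median of 0 in both stages, while 3 or more of 8 fibroblast markers were found in 23 pubertal and 18 adult cells.

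The 107 retained adult cells numbered 48 to 188 in their labels stood apart from the rest. Rn7sk, a small nuclear RNA, gave reads in 104 of them, against 6 of the other 45 adult cells and 20 of 171 pubertal cells. What the numbers stand for is not in the labels. Stage ratios of the members are therefore given with and without these cells where a direction or a 2-fold call depended on them. For the other pathway genes, calls that depended on them are named for all cells and for basal-like cells.

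Nrg1 was the most abundant member in pubertal basal-like cells and differed widely between stages. In pubertal basal-like cells it reached 1177 RPKM, rank 45 of 12768 detected genes, and in adult basal-like cells 108 RPKM, rank 840 of 13455. Reads were found in 37 of 39 pubertal basal-like cells (94.9%, interval 82.7 to 99.4%) and in 51 of 71 adult ones (71.8%, 59.9 to 81.9%). Single pubertal basal-like cells ranged from 0 to 29610 CPM with a median of 1100, and adult ones from 0 to 3860 CPM with a median of 30. The ranges overlapped, but 28 of 39 pubertal basal-like cells lay at or above 100 CPM against 16 of 71 adult ones. The mean level was 2475 CPM at puberty and 226 CPM in the adult, 10.9-fold higher at puberty (log2 ratio 3.45, counting interval 3.37 to 3.52). A single cell carried 30.7% of the pubertal basal-like reads, and leaving out the highest cell of each stage gave a log2 ratio of 3.33.

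**Figure D1:**
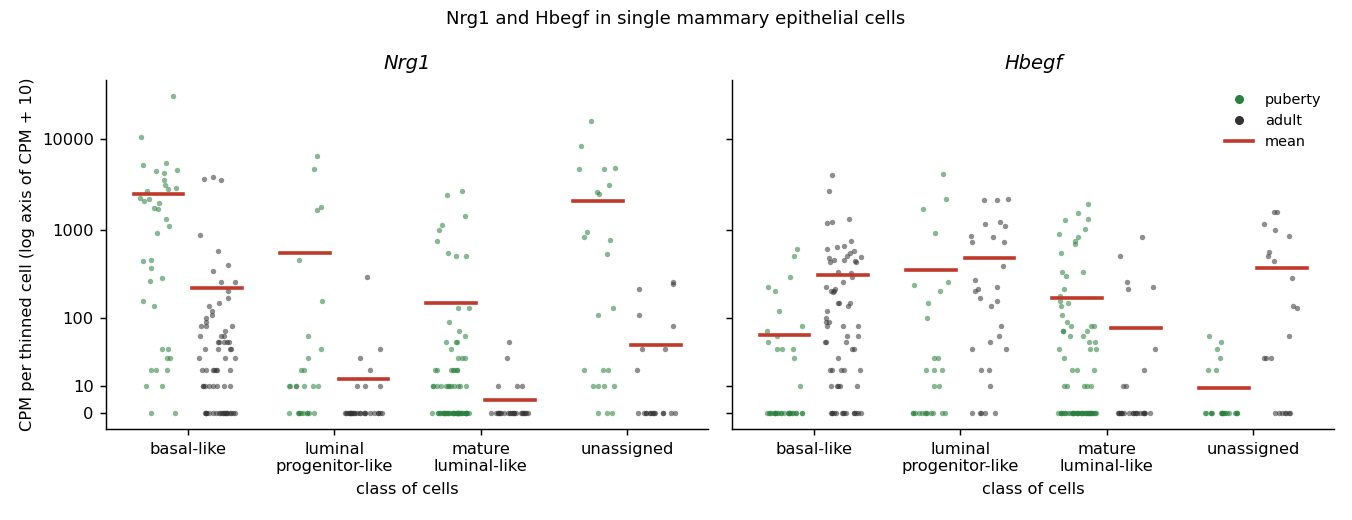
Nrg1 and Hbegf in single retained cells by class. Each point is a cell thinned to 100000 read pairs (puberty green, adult dark) on a log axis of CPM plus 10, and the red line is the group mean. Nrg1 is high in most pubertal basal-like cells (median 1100 CPM) and low in adult ones (median 30 CPM), while Hbegf is detected in more adult basal-like cells.

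Over all retained cells Nrg1 was 1015 CPM at puberty and 116 CPM in the adult, an 8.76-fold difference (log2 3.12, 3.05 to 3.19), and was detected in 116 of 171 and 71 of 152 cells. The difference had the same direction in the luminal classes. Luminal progenitor-like cells held 554 CPM at puberty (18 of 28 cells, highest cell 6470 CPM) and 13.5 CPM in the adult (7 of 31 cells). Mature luminal-like cells held 150 CPM (40 of 80 cells, highest 2650 CPM) and 3.93 CPM (5 of 28 cells, highest 50 CPM). These were log2 ratios of 5.25 (4.84 to 5.70) and 4.94 (4.23 to 5.68). The mean of the pubertal luminal progenitor-like cells lay in few cells, since their median was 10 CPM and 1 cell held 41.7% of the reads.

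The size of the Nrg1 difference moved with the cells that were set against each other. With adult cells 48 to 188 left out, the basal-like log2 ratio was 2.42 (2475 against 462 CPM), and with only those adult cells it was 4.02 (adult level 152 CPM). Over all cells the corresponding values were 2.51 and 3.48. Outside cells 48 to 188, 746 of the 786 adult basal-like reads lay in 2 cells. Without the highest cell of each group the basal-like log2 ratios were 2.81 and 4.31. With cells carrying 3 or more fibroblast markers left out, the log2 ratio was 2.83 in basal-like and 2.81 in all cells. The 7 pubertal basal-like cells with such markers averaged 5439 CPM and the other 32 averaged 1827 CPM, although their medians were alike at 1100 and 1115 CPM. In the adult the order was the other way, 44.0 CPM in 10 such cells and 256 CPM in 61 others. The part of the fibroblast markers in the result was not tested.

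Within each stage Nrg1 followed the basal class. It was 9.72-fold higher in basal-like than luminal-like cells at puberty (log2 3.28) and 25.2-fold higher in the adult (log2 4.51). Basal-like cells made up 22.8% of pubertal cells and held 55.6% of Nrg1 reads, and 46.7% of adult cells with 91.2% of reads. Unassigned cells held a further 28.5% of the pubertal reads. Among pubertal mature luminal-like cells, Nrg1 lay mainly in those that also carried basal transcripts. The 23 cells with 3 or more basal markers averaged 498 CPM (19 with a read), and the 57 with fewer averaged 9.30 CPM (21 with a read). Of the 11 mature luminal-like cells at or above 100 CPM, 10 had 3 or more basal markers. Pubertal luminal progenitor-like cells averaged 715 CPM in the 15 with 3 or more basal markers and 369 CPM in the 13 with fewer. The medians were 30 and 10 CPM. Of the 15, 5 lay at or above 100 CPM, and of the 13 only 1 did, so that mean rested on 1 cell. In the adult, 12 of 50 luminal-like cells with 3 or more basal markers had a Nrg1 read, at a mean of 10.6 CPM, and none of the 9 others did. Whether basal transcripts in luminal cells play a part in these Nrg1 levels was not tested.

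Hbegf, the heparin-binding EGF-like factor, ran opposite to Nrg1 in basal-like cells. It was detected in 15 of 39 pubertal basal-like cells (38.5%, 23.4 to 55.4%), with a median of 0 and a highest cell of 620 CPM. In the adult it was detected in 57 of 71 (80.3%, 69.1 to 88.8%), with a median of 90 and a highest cell of 4050 CPM. Of these 57 cells, 49 were among the 54 basal-like cells numbered 48 to 188 and 8 among the other 17. The pubertal and adult means were 61.8 and 312 CPM, 5.05-fold lower at puberty (log2 -2.32, -2.51 to -2.13). Adult basal-like cells thus held Hbegf at 131 RPKM beside Nrg1 at 108 RPKM, whereas pubertal ones held 26.0 RPKM beside 1177 RPKM. The adult order depended on the numbered cells. Within them Hbegf stood at 340 CPM and Nrg1 at 152 CPM. Outside them Hbegf stood at 223 CPM and Nrg1 at 462 CPM, with most of those Nrg1 reads in few cells.

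In the luminal classes Hbegf was highest in progenitor-like cells, at 357 CPM at puberty (16 of 28 cells, median 15) and 490 CPM in the adult (26 of 31 cells, median 170). The log2 ratio was -0.45, or 0.41 without and -0.60 with only adult cells 48 to 188. When the highest cells were left out, these ratios were -0.98, 1.52 and -1.11, so the last 2 passed 2-fold. Mature luminal-like cells went the other way from basal-like cells, with 172 CPM at puberty (42 of 80 cells) and 76.1 CPM in the adult (9 of 28 cells), 2.27-fold higher at puberty. Over all cells Hbegf was 155 CPM at puberty and 315 CPM in the adult (log2 -1.02). This value rested on adult cells 48 to 188, 85.0% of which had a read (mean 374 CPM), against 16 of the other 45 adult cells (mean 174 CPM). Without the numbered set the log2 ratio over all cells was -0.17, and in basal-like cells -1.83, or -0.52 when the highest cell of each group was also left out. In mature luminal-like cells the adult level was 2.35 CPM without the set and 190 CPM within it, giving log2 ratios of 5.69 and -0.14, and the ratio was -0.19 when cells were classed with no margin.

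Btc, betacellulin, was a ligand of mature luminal-like cells. At puberty it was detected in 35 of 80 of them (43.8%, 32.7 to 55.3%), with a mean of 75.6 CPM, a median of 0 and a highest cell of 990 CPM, against 5 of 28 luminal progenitor-like and 1 of 39 basal-like cells. Mature luminal-like cells held 87.4% of pubertal Btc reads and were 46.8% of the cells. In the adult 4 of 28 mature luminal-like cells had Btc (mean 14.3 CPM), 1 of 71 basal-like cells and 0 of 31 luminal progenitor-like cells. Taking 3 cells as the limit that a count of 0 allows, up to 9.68% of such cells could give a read at this depth. Btc was 5.29-fold higher at puberty in mature luminal-like cells (log2 2.33, 1.89 to 2.79). In luminal progenitor-like cells it was 18.5-fold higher against a floor of 3 reads over the adult group, with 39 of the 50 pubertal reads in 2 cells. Against the adult cells outside the numbered set the same floor gave 3.57-fold. Because 1 cell can hold many reads, these folds are no lower limits. Over all cells Btc was 14.6-fold higher (40.5 and 2.76 CPM), a comparison that also carries the larger share of mature luminal-like cells at puberty. The mature luminal-like log2 ratio was 1.79 without adult cells 48 to 188 and 4.05 with only those.

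Tgfa, transforming growth factor alpha, was sparse. It was detected in 8 of 39 pubertal (19.7 CPM) and 18 of 71 adult basal-like cells (66.2 CPM), 3.35-fold lower at puberty (log2 -1.70, -2.04 to -1.36). One adult cell held 41.1% of those adult reads. In mature luminal-like cells it was 17.1 CPM at puberty and 62.1 CPM in the adult, but 90.2% of the adult reads lay in 1 cell, and the log2 ratio went from -1.80 to 0.43 without the highest cells. The adult level was 97.1 CPM without cells 48 to 188 and 8.18 CPM within them, with log2 ratios of -2.44 and 0.98. Adult luminal progenitor-like cells gave no Tgfa read in 31 cells, and 1 of 28 pubertal ones did.

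Ereg, epiregulin, was found in 11 of 171 pubertal cells (15.6 CPM) and 5 of 152 adult cells (7.83 CPM). Single cells dominated, with 1 cell holding 52.3% of the pubertal and 85.7% of the adult reads. In basal-like cells 3 of 39 pubertal cells (5.38 CPM) and 4 of 71 adult cells (16.5 CPM) had a read, and the log2 ratio of -1.45 became 0.31 without the highest cells, 1.22 with no class margin and 0.89 with Ward clusters. All adult Ereg reads lay in cells 48 to 188. With only those adult cells the log2 ratio was -1.83 in basal-like and 0.45 in all cells. The other adult cells had none, and against a floor of 3 reads Ereg was 3.05-fold (basal-like) and 23.3-fold (all cells) higher at puberty. In mature luminal-like cells 5 of 80 pubertal and 0 of 28 adult cells had Ereg. This was 10.7-fold higher at puberty against a floor of 3 reads, with 81.5% of the pubertal reads in 1 cell. Luminal progenitor-like cells had no Ereg read at either stage.

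Egfr, the receptor of these ligands, was found in basal-like and luminal progenitor-like cells and was scarce in mature luminal-like cells. It was detected in 11 of 39 basal-like, 6 of 28 luminal progenitor-like and 2 of 80 mature luminal-like cells at puberty, with means of 95.6, 129 and 4.00 CPM. In the adult it was detected in 21 of 71, 9 of 31 and 3 of 28 cells, with means of 49.4, 55.5 and 2.14 CPM. Egfr was 32.1-fold lower in mature luminal-like than in luminal progenitor-like cells at puberty (log2 -4.70, -5.14 to -4.26) and 25.9-fold lower in the adult (log2 -4.17, -5.01 to -3.28). Between stages Egfr was 2.32-fold higher at puberty in luminal progenitor-like cells (log2 1.20), but the log2 ratio was 0.93 without the highest cells, -0.81 with a class margin of 0.5 and -0.20 with Ward clusters. The basal-like ratio of 0.94 and the ratio of 0.52 over all cells lay under 2-fold, and the basal-like ratio was 0.17 without and 1.30 with only adult cells 48 to 188. One cell held 59.4% of the pubertal luminal progenitor-like reads, and the shares of detecting cells, 21.4% and 29.0%, were not higher at puberty. Among the 6 adult luminal progenitor-like cells outside the numbered set, none had an Egfr read, and the log2 ratio against the other 25 was 0.89. Egfr shares its interval with the antisense gene Egfros, which held 154 reads over all thinned cells, and reads of the 2 cannot be told apart if strand was not used in counting.

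**Figure D2:**
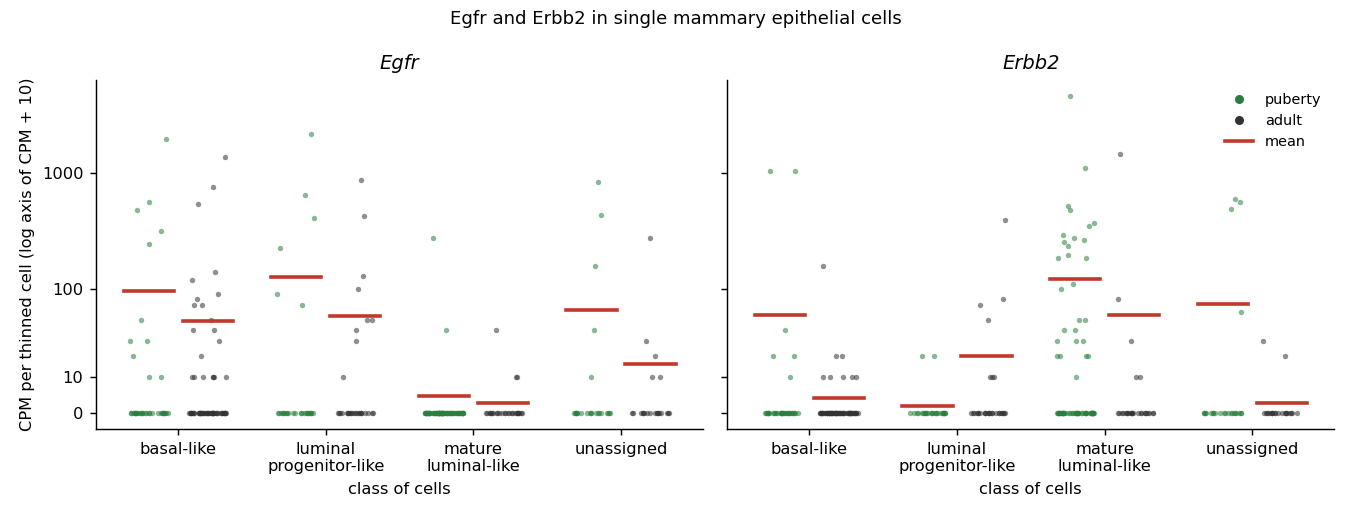
Egfr and Erbb2 in single retained cells by class. Each point is a thinned cell (puberty green, adult dark) on a log axis of CPM plus 10, and the red line is the group mean. Only 2 of 80 pubertal mature luminal-like cells have Egfr reads and 28 of 80 have Erbb2 reads.

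Erbb2, the receptor without a ligand, had the reverse luminal pattern at puberty. It was detected in 28 of 80 pubertal mature luminal-like cells (35.0%, 24.7 to 46.5%) at 123 CPM, in 6 of 39 basal-like cells at 55.9 CPM and in 2 of 28 luminal progenitor-like cells at 1.43 CPM. Mature luminal-like cells were 86.2-fold above luminal progenitor-like cells (log2 5.68, 4.73 to 6.49, and 5.31 without the highest cells). The luminal progenitor-like level rested on 4 reads. With no class margin the stage ratio of Erbb2 in that class changed sign, so the size of this gap also depends on the margin. The adult did not show that gap, with 5 of 28 mature luminal-like cells at 56.8 CPM and 7 of 31 luminal progenitor-like cells at 20.3 CPM. One cell held 91.8% of the adult mature luminal-like reads, and the adult log2 ratio went from 1.44 to -0.58 without the highest cells.

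Over all cells Erbb2 was 4.87-fold higher at puberty (80.8 and 16.6 CPM, log2 2.22, 2.03 to 2.41). The direction differed between classes. Erbb2 was 15.9-fold higher at puberty in basal-like cells (adult 3.52 CPM, log2 3.65) and 2.17-fold higher in mature luminal-like cells (log2 1.10, and 3.57 without the highest cells), but 14.2-fold lower in luminal progenitor-like cells (log2 -3.13). The last rested on 4 pubertal and 63 adult reads, and its log2 ratio was 0.96 with no class margin, -2.56 without adult cells 48 to 188 (0.80 when the highest cells were also left out) and -3.24 with only those. The share of basal-like cells with a read was close at the 2 stages, 15.4% and 11.3%. A pair of pubertal cells, at 1050 and 1040 CPM, held 209 of the 218 pubertal basal-like reads, and the other 37 averaged 2.43 CPM, beside 1.01 CPM in the adult without its 2 highest cells. Without adult cells 48 to 188 the log2 ratio was 3.80 over all cells, 5.16 in basal-like and 3.84 in mature luminal-like cells, and with only those adult cells it was 1.86, 3.39 and -0.11. Erbb2 overlaps Mien1, a gene with 3408 reads over the thinned cells, and its counts are uncertain to that extent.

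Erbb3, a neuregulin receptor, gave reads in 18 of 171 cells at puberty and 14 of 152 in the adult at nearly the same mean, 22.5 and 22.2 CPM (log2 0.02, -0.18 to 0.23). At puberty it was highest in mature luminal-like cells, with 34.0 CPM in 10 of 80 cells. The adult mean of 60.0 CPM in that class came from 3 of the 11 cells numbered 48 to 188 (152.7 CPM), and none of the 17 others had a read. Against a floor of 3 reads in those others Erbb3 was 19.3-fold higher at puberty in mature luminal-like cells. Against the numbered cells it was 4.49-fold lower. In basal-like cells, where Nrg1 was highest, Erbb3 reads came from 2 of 39 cells at puberty and 4 of 71 in the adult. A single cell held 98.0% and 95.8% of them. The closeness of the stage means rested on the numbered adult cells. Erbb3 averaged 30.7 CPM in those cells and 1.78 CPM in the other adult cells (1 of 45), so the log2 ratio over all cells was 3.08 without the set and -0.43 with only it. In basal-like cells the adult cells outside the set had no Erbb3 read, and against a floor of 3 reads Erbb3 was 7.26-fold higher at puberty. It was level with the adult cells in the set (log2 -0.03). In luminal progenitor-like cells the log2 ratio was 0.37 without the set and -0.94 with only it.

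Erbb4, the other neuregulin receptor, was hardly detected at this depth. One pubertal cell of 171 had 1 read, and 4 of 152 adult cells had 38 reads, 35 of them in 1 mature luminal-like cell. Adult mature luminal-like cells therefore stood at 12.9 CPM against 0 of 80 pubertal cells, 34.3-fold lower at puberty against a floor of 3 reads. That value was set by that cell, which lay outside the numbered set. No basal-like cell of either stage had an Erbb4 read after thinning, and 2.82% of adult ones had one before it. Taking 3 cells as the limit, up to 7.69% of pubertal and 4.23% of adult basal-like cells could give a read at the thinned depth.

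**Figure D3:**
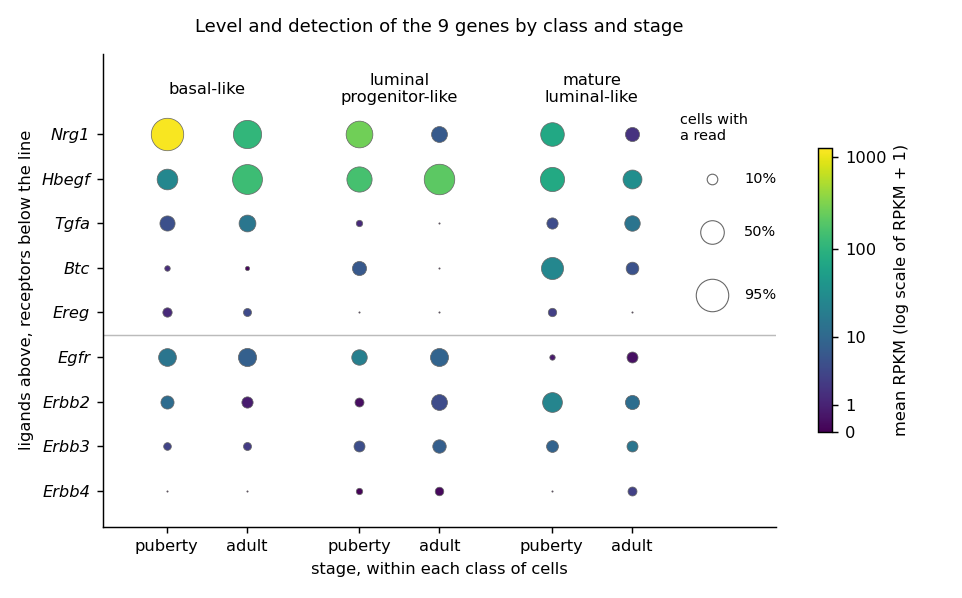
All 9 members by class and stage. Dot size is the percent of retained cells with a read and colour the mean RPKM (log scale of RPKM plus 1), with ligands above the line and receptors below it. Nrg1 in pubertal basal-like cells (1177 RPKM) is the highest value, and receptors stay under 25 RPKM in every class.

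On the per-length scale the receptors lay far below the leading ligands. At puberty the order over all cells was Nrg1 at 482 RPKM, Hbegf at 65.1, Erbb2 at 16.2, Btc at 14.1, Egfr at 8.31, Erbb3 at 5.60, Ereg at 3.76, Tgfa at 3.28 and Erbb4 at 0.0137 RPKM. In the adult Hbegf led at 133 RPKM, followed by Nrg1 at 55.1, Tgfa at 11.8, Egfr at 5.76, Erbb3 at 5.52, Erbb2 at 3.32, Ereg at 1.89, Btc at 0.961 and Erbb4 at 0.587 RPKM. The adult lead of Hbegf rested on cells 48 to 188 (374 CPM, beside 90.1 CPM for Nrg1). Outside them Nrg1 stood at 177 CPM and Hbegf at 174 CPM, and Nrg1 has the shorter exon length. Neighbours in the lower part of these orders rest on few cells, with Ereg, Tgfa and Erbb3 detected in under 20% of cells at either stage.

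The number of members apart by 2-fold or more between stages was read against the same count over all genes that reached 10 CPM in 1 of the groups. Over all cells 8 members reached 10 CPM, of which Nrg1, Btc and Erbb2 were higher and Hbegf and Tgfa lower at puberty. Of 9771 genes, 21.8% were higher and 15.7% lower, and the median log2 ratio was 0.71 for the members and 0.11 for all genes. In basal-like cells 2 of 7 members (Nrg1, Erbb2) were higher and 3 (Hbegf, Tgfa, Ereg) lower, beside 29.9% and 23.7% of 9159 genes, with medians of 0.33 and 0.11. In luminal progenitor-like cells 3 of 6 (Nrg1, Btc, Egfr) were higher and 1 (Erbb2) lower, beside 35.5% and 28.1% of 8661 genes, with medians of 0.37 and 0.14. In mature luminal-like cells 5 of 8 (Nrg1, Hbegf, Btc, Ereg, Erbb2) were higher and 2 (Tgfa, Erbb4) lower, beside 36.2% and 21% of 9036 genes, with medians of 1.14 and 0.31. In each class most genes passed 2-fold in 1 direction or the other, so the members' counts stand as a description and single values were read by their size. For Nrg1, 322 of 9771 genes had a larger log2 ratio over all cells and 575 of 9159 in basal-like cells. For Btc 235 genes over all cells had a larger one.

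**Figure D4:**
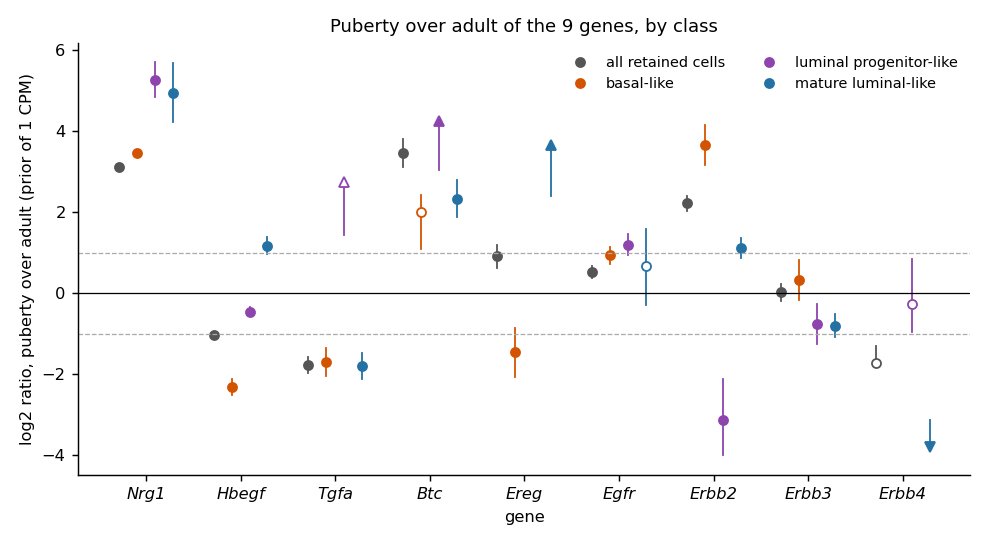
Log2 ratio of puberty over adult for each member, in all retained cells and in each class. Vertical lines are 95% counting intervals, triangles mark groups with no read at 1 stage (a ratio set by the prior of 1 CPM), open symbols mark members under 10 CPM at both stages, and dashed lines mark 2-fold. Nrg1 lies above 3 in all 3 classes, and Erbb2 lies at 3.65 in basal-like and -3.13 in luminal progenitor-like cells.

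Between classes, basal-like cells were compared with the 2 luminal classes together. At puberty 2 of 7 members (Nrg1, Egfr) were 2-fold or more higher in basal-like cells and 3 (Hbegf, Btc, Erbb3) lower, beside 22.8% and 28.5% of 9607 genes. Hbegf was 3.57-fold and Btc 14.8-fold lower in pubertal basal-like cells, and Egfr was 2.64-fold higher. In the adult 3 of 7 (Nrg1, Tgfa, Ereg) were higher and 2 (Erbb2, Erbb3) lower, beside 28.2% and 29.7% of 9136 genes. Erbb2 was 10.7-fold and Erbb3 4.44-fold lower in adult basal-like cells, whereas Hbegf stood level with the luminal cells there (log2 0.09). The median log2 ratio of the members was -0.70 at puberty and 0.69 in the adult, beside -0.12 and -0.03 over all genes.

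Ligands and receptors were also followed within single cells. At least 1 of the 5 ligands gave reads in 154 of the 171 cells at puberty (90.1%) and 123 of the 152 in the adult (80.9%), and at least 1 receptor in 70 (40.9%, 33.5 to 48.7%) and 64 (42.1%, 34.2 to 50.4%). Most cells with a receptor showed only 1, since 11 pubertal (6.43%) and 14 adult cells (9.21%) had 2 or more. Erbb2 and Erbb3, whose products form a receptor pair, were found together in 9 pubertal cells, 5 of them mature luminal-like, and in 3 adult cells. At puberty, with all classes pooled, Erbb3 was found in 22.5% of cells with Erbb2 and 6.87% of cells without. Both genes were highest in the mature luminal-like class there, and the part of class in this contrast was not tested. Egfr and Erbb2 were seldom found together, in 2 pubertal and 3 adult cells. Nrg1 was found with Erbb3 or Erbb4 in the same cell in 10 pubertal and 6 adult cells. At 100000 read pairs a receptor that is present can be missed, and 1 read counts as detection. These shares therefore describe reads at this depth only.

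Nrg1 and Hbegf were found together in 14 of 39 pubertal basal-like cells (35.9%, 21.2 to 52.8%) and in 44 of 71 adult ones (62.0%, 49.7 to 73.2%). In mature luminal-like cells the order was the other way, with 18 of 80 pubertal and 1 of 28 adult cells. In adult cells Hbegf was found in 84.5% of those with Nrg1 and 58.0% of those without, and at puberty in 41.4% and 56.4%. Among adult cells, 53 of 107 of the numbered set and 7 of the other 45 had both. Outside the set the adult basal-like share was no higher than the pubertal one. Btc was found in 38.0% of pubertal cells with Hbegf and 15.2% of those without. These shares pool all classes, as do those of Hbegf in cells with and without Nrg1. Egfr was found together with Hbegf, Tgfa, Btc or Ereg in 14 pubertal (8.19%) and 35 adult cells (23.0%), of which 30 belonged to the numbered set.

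**Figure D5:**
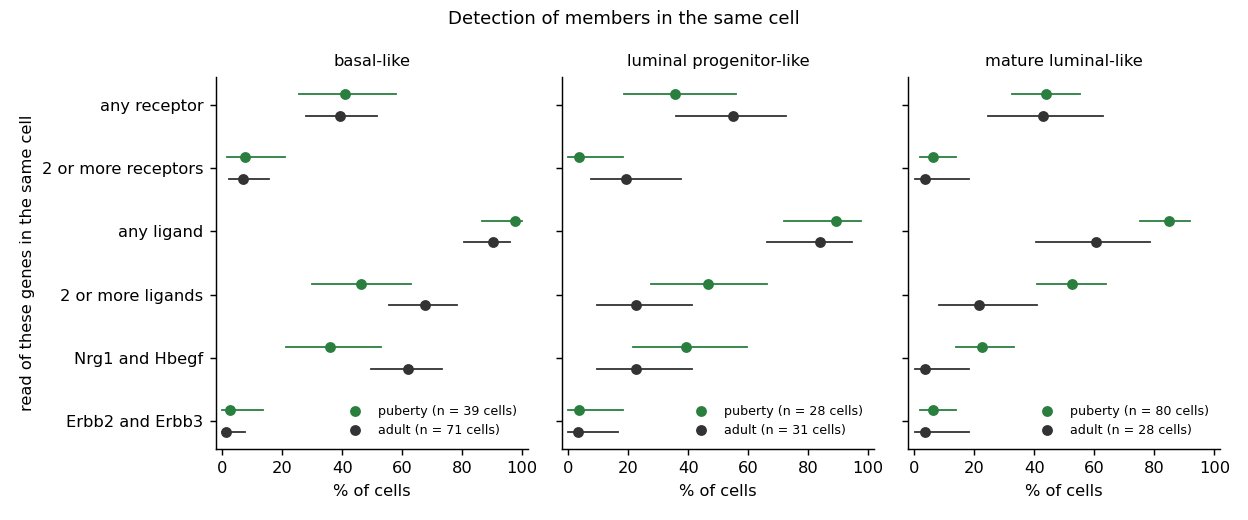
Percent of retained cells, by class, in which members were detected together. Points are shares and lines 95% exact binomial intervals, for puberty and adult. Nrg1 with Hbegf is found in 35.9% of pubertal and 62.0% of adult basal-like cells.

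The other genes of the pathway were taken from a list of 38. Over all cells 29 reached 10 CPM, and 9 were 2-fold or more higher and 7 lower at puberty, beside 21.8% and 15.7% of all genes, with a median log2 ratio of 0.13 beside 0.11. Among the 6 other ligands, Epgn (epigen) was higher at puberty (71.2 and 1.18 CPM, log2 5.05) in 22 of 171 and 2 of 152 cells. Areg held 751 and 401 CPM over all cells (log2 0.91), and in mature luminal-like cells its level was close at the 2 stages, 1368 and 1395 CPM, in 74 of 80 and 22 of 28 cells. Egf, Nrg2, Nrg3 and Nrg4 stayed under 10 CPM over all cells. Areg thus led the EGF receptor ligands of mature luminal-like cells at puberty at 1141 RPKM, beside Hbegf at 72.6 and Btc at 26.3 RPKM.

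Of the 4 proteases and partners that release ligands, Adam10, a sheddase of Btc, was higher at puberty (104 and 41.6 CPM), as were Rhbdf1 (87.4 and 17.7 CPM) and Rhbdf2 (51.6 and 16.2 CPM), which escort the sheddase Adam17. One cell held 71.4% of the pubertal Rhbdf1 reads, and Adam17 itself was level (35.2 and 37.4 CPM). Within classes Adam10 was under 2-fold in all 3, and none of these 4 genes was 2-fold apart in basal-like cells. In luminal progenitor-like cells Rhbdf1 was higher at puberty, and Rhbdf2 and Adam17 were lower. In mature luminal-like cells Rhbdf1 and Rhbdf2 were higher at puberty. Against the adult cells outside the numbered set, Adam10 and Adam17 were also higher in luminal progenitor-like cells. The same comparison had Adam17 higher in mature luminal-like and Rhbdf2 higher in basal-like cells. Mature luminal-like cells, which held most Adam10, were 46.8% of pubertal and 18.4% of adult cells. Of 9 receptor inhibitors, 7 reached 10 CPM, and 4 were lower at puberty, namely Lrig1 (12.2 and 50.8 CPM), Lrig2, Cblb and Socs3 (1.81 and 54.0 CPM), while Cbl and Socs5 were higher, beside 15.7% lower and 21.8% higher of all genes. Among inhibitors that reached 10 CPM in mature luminal-like cells, 1 of 7 was lower and 3 higher, beside 21% and 36.2% of all genes. In basal-like cells 6 of 8 were lower and 1 higher, beside 23.7% and 29.9%. In luminal progenitor-like cells 3 of 7 were lower and 3 higher, beside 28.1% and 35.5%. Lrig1 and Cblb promote loss of activated receptors from the cell. Lrig1 gave reads in 15 of 171 cells at puberty and 39 of 152 in the adult. Of 5 adaptors only Shc1 was 2-fold apart (17.8 and 51.6 CPM). Of 14 feedback inhibitors and targets of ERK, 11 reached 10 CPM. Spry2 (295 and 141 CPM), Dusp4 (25.2 and 2.83 CPM) and Etv5 (18.4 and 4.80 CPM) were higher at puberty, and Spry1 and Fosl1 (3.98 and 22.2 CPM) were lower. Spry2, an inhibitor of receptor tyrosine kinase signalling, was found in all 39 pubertal basal-like and all 28 pubertal luminal progenitor-like cells.

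In basal-like cells 30 list genes reached 10 CPM, 7 higher and 10 lower at puberty, beside 29.9% higher and 23.7% lower of all genes. The higher genes were Epgn, Socs5, Gab1, Spry2, Spry4, Dusp4 and Etv5, and the lower ones Lrig1, Lrig2, Lrig3, Cbl, Cblb, Socs3, Shc1, Sos2, Spry1 and Fosl1. Etv5, a transcription factor induced by ERK, stood at 59.7 CPM in 11 of 39 pubertal and 10.1 CPM in 10 of 71 adult basal-like cells (log2 2.45). In luminal progenitor-like cells 9 of 27 were higher and 7 lower, beside 35.5% and 28.1% of all genes. In mature luminal-like cells 11 of 27 were higher and 5 lower, beside 36.2% and 21%. Without adult cells 48 to 188, 8 of 27 were higher and 7 lower over all cells, beside 31.7% and 19.7%. Of the genes named above, Adam10, Spry2, Lrig2, Spry1 and Fosl1 then lost their 2-fold call, and Shc1 lost it with only those adult cells. In basal-like cells Spry2, Lrig2, Cblb and Spry1 lost it without the numbered cells, and Spry4, Lrig1 and Cbl with only them. Shc1 in basal-like cells was lower at puberty without the numbered cells and higher with only them.

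Across 323 retained cells, Nrg1 was most alike in rank to Fbln2, Crispld2, Pdpn, Col4a1 and Lgr4 among 4833 genes detected in at least 20% of cells, with Spearman coefficients of 0.51 to 0.53. For Hbegf the 5 most alike were Dnajb9, Tenm2, Tfrc, Pde4b and Trf, at 0.35 to 0.41. The coefficient between Nrg1 and Hbegf was 0.02. All cells have the same depth after thinning, both stages and all classes are pooled in these coefficients, and the other 7 members were detected in too few cells for the same description.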

How the data were processed

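Single-cell libraries (Fluidigm C1 capture, Nextera XT, Illumina NextSeq 500) were aligned to mm10 with Subread by the authors, and read pairs were counted per gene with featureCounts on the RefSeq annotation built into Rsubread. The deposited tables hold these raw counts, 1 table a cell; versions and the strand setting are not given in the sources used here. A combined table holds the same counts and was not used. Each capture site was inspected by the authors for a single cell, and no doublet caller was run here.

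Of 27179 identifiers, 25275 matched RefSeq GRCm38.p6 (the rest held 1.84% of read pairs); without 15 mitochondrial genes and 86 genes of ribosomal proteins, 25174 remained. Cells had 2 to 1456360 (puberty) and 1 to 1167991 (adult) read pairs. Those with at least 100000 read pairs and 1500 genes were kept, the thresholds in the study's methods, which here kept fewer cells than the study states, and were thinned to 100000 pairs (random seed 1). No libraries had identical counts. Libraries carry no molecular identifiers, so intervals and floors (3 counts) treat amplified copies as separate reads. A fold against a floor of 3 reads is therefore no lower limit. Each class took the cells whose mean z-score over its 12 markers was highest by a margin of 0.25 or more, and other cells were unassigned. Class names rest on these markers. Leading genes held 2 markers of their own class for basal-like, 4 for luminal progenitor-like and 2 for mature luminal-like cells, where Btc itself was among the 10 leading genes. Luminal-like joins both luminal classes. Summed counts were set as CPM, with log2 ratios on CPM plus a prior of 1; folds carry no prior. Genes reaching 10 CPM in 1 group were counted as higher or lower at 2-fold. Each stage is 1 sample, so values carry no test. All members were described, pathway genes by counts with those 2-fold apart named, and likeness by the 5 highest Spearman coefficients; Areg, Adam17 and a few levels by class were named after their values were seen. The members and lists were chosen with earlier results of these data known. The calculations were tested on simulated data. Python 3.11.15, NumPy 2.4.6, SciPy 1.17.1, pandas 2.3.3, matplotlib 3.10.9 and R 4.3.3 with edgeR 4.0.16 (TMM factors only) were used. Alternatives covered coverage, thinning, scaling, prior, class margin, Ward clusters, fibroblast-marker cells, the numbered adult cells and the highest cells.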

Additional observations from a re-analysis of the deposited data

Results flagged for a closer look

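Hbegf had opposite stage directions in 2 classes, with a log2 ratio of puberty over adult of 1.17 in mature luminal-like and -2.32 in basal-like cells, a gap of 3.49. Without adult cells 48 to 188 both classes kept these directions, at 5.69 and -1.83, whereas with only those adult cells the mature luminal-like ratio was -0.14, and with no class margin it was -0.19. For Ereg the ratios were 3.64 in mature luminal-like and -1.45 in basal-like cells, a gap of 5.10, with 81.5% of the pubertal mature luminal-like and 87.2% of the adult basal-like reads in 1 cell each, and the basal-like ratio was 1.22 with no class margin. Erbb2 was higher at puberty in basal-like cells (3.65) and lower in luminal progenitor-like cells (-3.13), a gap of 6.79. The basal-like value rested on 2 pubertal cells, and the luminal progenitor-like ratio was 0.96 with no class margin. Its gap between mature luminal-like (1.10) and luminal progenitor-like cells was 4.24. None of these 4 differences was tested, since each stage is 1 sample.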

How the results depend on the processing

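No paired analysis was possible because the labels number cells, which are not shared between stages, and leaving out a replicate was not possible with 1 sample a stage. Nrg1 stayed higher at puberty under every alternative run. Over all cells its log2 ratio of 3.12 became 3.29 with at least 200000 read pairs and 2500 genes, 2.51 without and 3.48 with only adult cells 48 to 188, 2.99 with TMM factors, 3.03 with a prior of 10 CPM, 2.81 without cells carrying fibroblast markers, 3.20 without the highest cells and 3.69 with the 3 classes weighted equally, an alternative chosen after seeing the data. In basal-like cells 3.45 became 3.72, 2.42, 4.02, 3.29, 2.83 and 3.33 under the same changes other than the prior and the weighting, and 3.65 with no class margin, 3.89 with a margin of 0.5 and 3.61 with Ward clusters. The share of cells with Nrg1 was 80.1% at puberty without thinning, and 38.6% and 23.7% at puberty and in the adult when 5 reads were asked for. When classes were drawn otherwise, 6 ratios changed sign among the class ratios reported as 2-fold or more apart. Ereg in basal-like cells was 1.22 with no margin and 0.89 with Ward clusters. With no margin Erbb2 in luminal progenitor-like cells was 0.96 and Hbegf in mature luminal-like cells -0.19. Egfr in luminal progenitor-like cells was -0.81 with a margin of 0.5 and -0.20 with Ward clusters. Sign changes of smaller class ratios were not counted, and the cause was not tested. Without the highest cells the ratio turned for Tgfa in mature luminal-like (0.43), Ereg in basal-like (0.31) and Erbb3 in basal-like cells (-0.18), and with only adult cells 48 to 188 for Hbegf (-0.14), Erbb2 (-0.11) and Tgfa (0.98) in mature luminal-like and Erbb3 in basal-like cells (-0.03). Without those cells it turned for Hbegf (0.41) and Erbb3 (0.37) in luminal progenitor-like cells and for Erbb3 in mature luminal-like cells. It also turned for Ereg in basal-like cells (2.67), where the adult cells had no read. Over all cells the Erbb3 ratio turned with only adult cells 48 to 188 (-0.43). Members under 10 CPM at both stages of a class are left out of these lists. Between 4 and 6 members were 2-fold apart over all cells (5 as reported). Hbegf fell under 2-fold with a prior of 10 CPM, without adult cells 48 to 188, without fibroblast-marker cells and with classes weighted equally. TMM factors moved the median of all genes from 0.11 to -0.03, and the share of higher among called genes from 58.2% to 51.3%; it was 69.0% without the highest cells. Genes found in few cells, Ereg, Tgfa and Erbb4 above all, are limited by the number of cells and not by reads alone.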
